A study of Homo sapiens with 9 samples.

Results

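Phase II conjugation enzymes attach a polar group to drugs, hormones and waste products so that these can leave the cell. The members were taken by gene name from the deposited table: the UDP-glucuronosyltransferases UGT1A, UGT2A and UGT2B, the cytosolic sulfotransferases SULT1A to SULT1C and the other rows of that naming scheme, the glutathione S-transferases GSTA, GSTM, GSTP, GSTT, GSTK and GSTO, the microsomal MGST1 to MGST3, and the N-acetyltransferases NAT1 and NAT2. This gave 58 of 50868 genes. They were 19 UGT, 12 SULT, 22 GST, 3 MGST and 2 NAT rows. Of these, 53 had at least 1 count and 36 had enough counts to be tested. The names fixed the set, so SULT1E1, UGT3A, UGT8, GSTZ1 and GSTCD lie outside it, and 5 pseudogene rows of GST genes (names ending in P) lie inside it.

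Messenger RNA was sequenced from xenografts of Huh-7. This human liver cancer line was grown under the skin of NOD/SCID mice, a strain with severely reduced adaptive immunity. Once a tumour had reached about 100 mm3, adenovirus was injected into it every 4 days over 8 days. The control virus Ad-GFP carried GFP, Ad-HNF4A carried HNF4A, and Ad-K458R carried HNF4A with its K458R change. Each group had 3 libraries, 9 in all. All 3 groups share the line, the host and the repeated adenovirus injections, and the labels give the genotype of the line as WT. The host strain keeps macrophages and other innate cells. Tumours are numbered in the labels, but whether different numbers mean different mice is not said. P-values therefore reflect only how far these libraries spread, which may be technical. In bulk tumour RNA, fewer cells of a type and less RNA per cell cannot be told apart.

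UGT enzymes use UDP-glucuronic acid and sit in the endoplasmic reticulum. SULT enzymes use the sulfate donor PAPS, GST enzymes use glutathione, and NAT enzymes use acetyl-CoA. The liver is the main site of these reactions, and transporters then carry the conjugates into bile or blood. HNF4A, the gene carried by both test vectors, encodes a nuclear receptor that is known to bind near many hepatocyte genes, drug-metabolising enzymes among them.

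Several members cannot be cleanly separated by short reads. The 9 UGT1A rows lie in 1 locus on chromosome 2, where each gene has its own first exon and all are spliced to shared exons 2 to 5. In GENCODE 29, between 40.6% (UGT1A7) and 80.0% (UGT1A3) of the exonic bases of each row also lay in an exon of at least 1 of the other 8. The joins between exon 1 and the shared exon 2 (chr2:233767034-233767165, plus strand, GRCh38) are shown because they mark where a gene's own first exon ends. Reads that lie wholly in the common part of exons 2 to 5 match all 9 rows. The UGT1A1 transcript used has 2525 bases after exon 1, and those of the other 8 have 1478 to 1489. Reads in its extra part need not match every row. The last 40 bases of exon 1 are in lower case and the first 20 bases of exon 2 are in capitals.
UGT1A1: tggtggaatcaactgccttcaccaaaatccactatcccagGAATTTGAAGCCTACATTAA
UGT1A3: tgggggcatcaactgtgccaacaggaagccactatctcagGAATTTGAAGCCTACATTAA
UGT1A4: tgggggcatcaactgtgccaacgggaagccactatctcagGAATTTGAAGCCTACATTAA
UGT1A5: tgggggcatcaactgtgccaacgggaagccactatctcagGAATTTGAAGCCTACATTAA
UGT1A6: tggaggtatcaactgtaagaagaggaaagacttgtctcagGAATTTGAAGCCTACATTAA
UGT1A7: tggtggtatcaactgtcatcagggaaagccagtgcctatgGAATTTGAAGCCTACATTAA
UGT1A8: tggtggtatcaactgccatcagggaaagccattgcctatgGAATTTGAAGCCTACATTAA
UGT1A9: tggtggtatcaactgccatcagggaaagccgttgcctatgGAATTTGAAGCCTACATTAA
UGT1A10: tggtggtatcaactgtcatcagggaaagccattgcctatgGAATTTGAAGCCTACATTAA
These 60 bases were identical in UGT1A4 and UGT1A5. Over the whole coding part of exon 1, UGT1A3, UGT1A4 and UGT1A5 were 93.2% to 94.1% identical to one another. UGT1A7, UGT1A8, UGT1A9 and UGT1A10 were 92.0% to 94.0% identical. UGT1A1 was 54.2% to 63.7% identical to the other 8, and UGT1A6 was 55.9% to 58.0% identical to them.

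Elsewhere, copies were compared by the share of a gene's 100-base stretches that also occur in a transcript of another gene. That share was at least 10% for 19 members and at least 50% for 11. Outside UGT1A it was 93.3% for UGT2A2, whose exons are largely those of UGT2A1. It was 95.3% for SULT1A4 and 80.4% for SULT1A3, a duplicated pair that also overlaps readthrough genes. GSTT2 and GSTT2B stood at 67.3% and 78.5%, GSTM1 at 29.1%, GSTM2 at 12.9%, and UGT2B15 and UGT2B17 at 12.7% each. GSTA1 and GSTA2, neighbours on chromosome 6, shared 9.8% and 9.1%. NAT1, NAT2, SULT1C2, SULT2A1, GSTP1, GSTO1, UGT2B4 and UGT2B7 shared none. No source used here says how reads that match several genes were counted. Single values of the UGT1A, UGT2A1, UGT2A2, SULT1A3, SULT1A4, GSTT2 and GSTT2B rows are therefore uncertain. With smaller shares, GSTM1, GSTM2, UGT2B15 and UGT2B17 are affected less but are not cleanly separated either. UGT2A3 shared none.

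Library totals ran from 15933702 to 23171796 counts, and the members together held 0.210% to 0.288% of them. As a check of the labels, HNF4A mRNA averaged 169 ± 14.4 CPM in Ad-GFP libraries (SD, n = 3). It averaged 4199 ± 1036 CPM in Ad-HNF4A libraries and 5300 ± 264 CPM in Ad-K458R libraries. CPM is the count scaled to a common library total with TMM factors. Hepatocyte markers were all tested, and of the 9 only APOA1 was called, higher with both vectors. Of 9 macrophage markers, 7 were tested. Called higher were 3 with Ad-HNF4A and 4 with Ad-K458R, beside 3.16% and 3.32% of all tested genes. LAPTM5, called with both vectors, had only 6 counts over the Ad-GFP libraries. It had enough counts to be tested only through the vector groups, where it was high, so a difference was likely beforehand. The summed level of the 9 ran from 16.8 to 20.5 CPM with Ad-GFP, from 30.4 to 38.0 CPM with Ad-HNF4A and from 39.7 to 42.9 CPM with Ad-K458R. Much of this sum was CD68, which averaged 12.4, 17.9 and 24.8 CPM in these groups. CSF1R averaged only 0.018, 0.523 and 0.626 CPM. The endothelial marker VWF was higher with both vectors, while KDR had no counts in any library. The kidney marker PAX8 was higher with Ad-K458R, and UMOD had no counts. HBA1 and ALAS2 of the blood list had none either, and no marker of fibroblasts, intestine or bile ducts was called. The part of other cell types in the results below was not tested.

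The level of each member in control tumours was described on the deposited FPKM scale, which divides counts by 1 length per gene. For many members that length is longer than the GENCODE 29 exons, for GSTP1 4660 against 1911 bases, so ratios between genes are approximate. GSTP1, the pi-class glutathione transferase, was the most abundant member in Ad-GFP at 275 ± 10.9 FPKM (SD, n = 3). GSTO1, an omega-class enzyme that reduces as well as conjugates, followed at 53.1 ± 2.05 FPKM. GSTA2, an alpha-class enzyme typical of hepatocytes, came next at 23.5 ± 2.72 FPKM. Its libraries overlapped those of SULT2A1, the sulfotransferase of steroids and bile acids, at 21.4 ± 0.902 FPKM. MGST1 at 17.0 ± 2.97 FPKM stood clear of both SULT2A1 and GSTK1, and GSTK1 (12.1 ± 0.401 FPKM) and MGST2 (11.4 ± 0.873 FPKM) overlapped each other. Thus 7 members exceeded 10 FPKM and 23 exceeded 1 FPKM. Among UGT genes the highest was UGT2B4, an enzyme of bile acids and steroids, at 9.74 ± 0.866 FPKM. UGT1A1, the bilirubin-conjugating enzyme, stood at 1.28 ± 0.238 FPKM, and from UGT2A3 downwards each neighbour in the order overlapped the next.

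**Figure D1:**
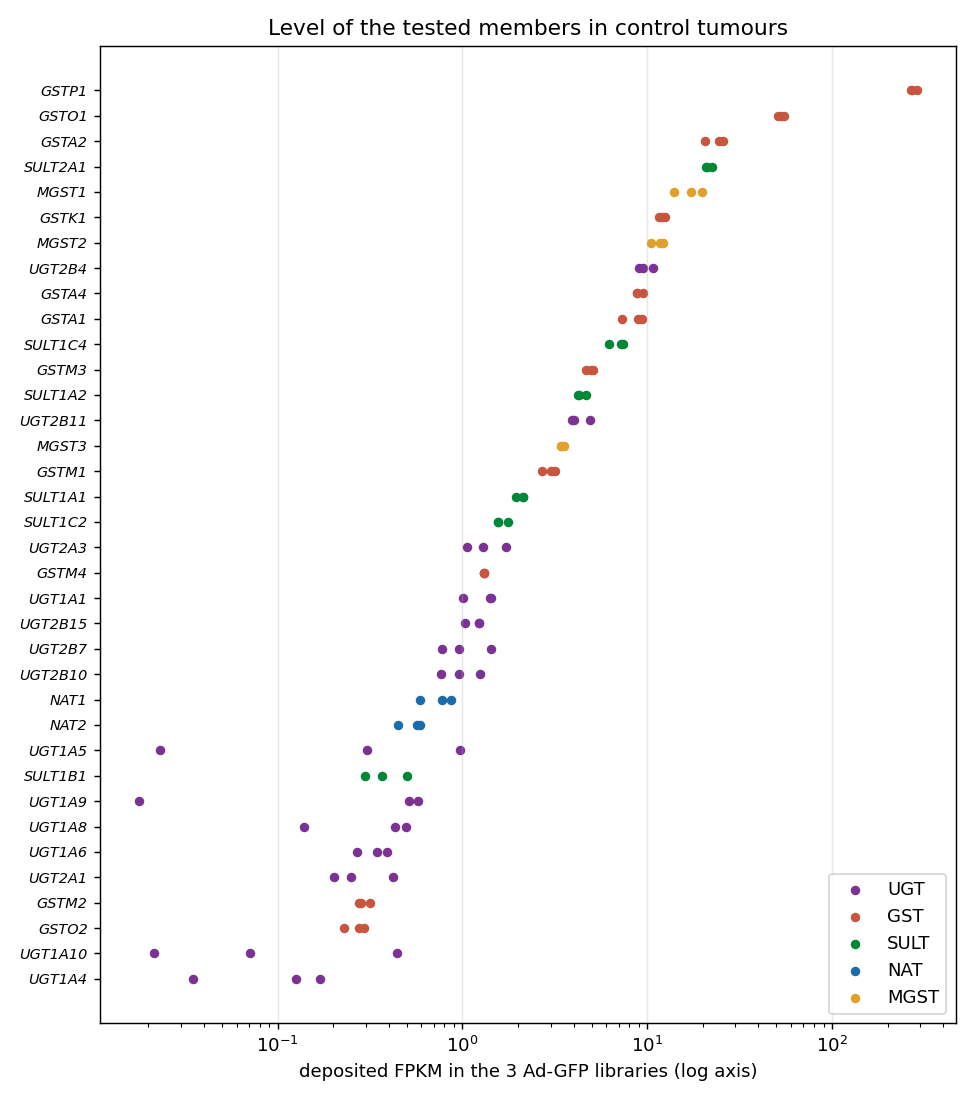
Deposited FPKM (log axis) of the 36 tested members in the 3 Ad-GFP libraries, 1 point per library, ordered by the mean and coloured by family. GSTP1 at 266 to 287 FPKM stands apart on the right, and the UGT1A rows at the bottom spread widest between libraries.

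Of the 22 members that were not tested, 5 had no counts in any library (GSTA3, GSTA5, GSTA8P, SULT1A4 and SULT6B1). A count of 0 allows up to 3 counts, which is 0.129 to 0.188 CPM in these libraries. The other 17 untested members had at most 86 counts over the 9 libraries. They were UGT1A3, UGT1A7, UGT2A2, UGT2B17, UGT2B28, SULT1A3, SULT1C3, SULT2B1, SULT4A1, GSTM5, GSTT2, GSTT2B, GSTT4, GSTA6P, GSTA7P, GSTA9P and GSTO3P. UGT2B17, the testosterone-conjugating enzyme, had 0 to 7 counts per library. UGT2A2 had 20 counts in Ad-GFP replicate 3, 14 and 3 in Ad-K458R replicates 2 and 3, and none in the other 6 libraries. Testing required about 0.54 CPM in at least 3 libraries. Of the 36 tested members, 31 reached it in the Ad-GFP libraries alone, and 5 UGT1A rows (UGT1A4, UGT1A5, UGT1A8, UGT1A9 and UGT1A10) did not. A member that passes only through a group where it is high is likely to differ, so the counts of members below are also given over the 31, a choice made after seeing the data. UGT1A4 did not pass in this way. Its highest counts were 13 in Ad-GFP replicate 2, 11 in Ad-HNF4A replicate 3 and 18 in Ad-K458R replicate 2.

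Against Ad-GFP, 4 of the 36 members were higher with Ad-HNF4A and none was lower. They were NAT2, SULT1C2, UGT1A1 and UGT1A8, the last being 1 of the 5 rows that did not reach the limit in Ad-GFP alone. The share of 11.1% can be read beside 3.16% of all 16697 tested genes called higher and 0.305% called lower in the same fit (edgeR's quasi-likelihood test, Benjamini-Hochberg adjusted p under 0.05 over all genes). With Ad-K458R, NAT2, SULT1A2, SULT1C2 and UGT1A1 were higher and none was lower, beside a background of 3.32% higher and 0.234% lower. Over the 31 members that reached the limit in Ad-GFP alone, 3 (9.68%) were called higher with Ad-HNF4A and 4 (12.9%) with Ad-K458R. Both comparisons use the same 3 Ad-GFP libraries, so they are not independent of each other. The median log2 difference over the 36 was 0.224 with Ad-HNF4A, against 0.006 over all genes, and 0.112 with Ad-K458R, against -0.004. It was above 0 for 29 of 36 (80.6%) and 25 of 36 (69.4%), beside 51.1% and 49.1% of all genes. Over the 31, the medians were 0.168 and 0.105, and 26 (83.9%) and 22 (71.0%) were above 0. The members are not independent of one another, 7 of the 36 being UGT1A rows with shared exons. The set was also chosen with earlier results of these data known. Ad-HNF4A replicate 3 was the highest library for 17 of the 36, and medians and shares above 0 are not given without it.

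**Figure D2:**
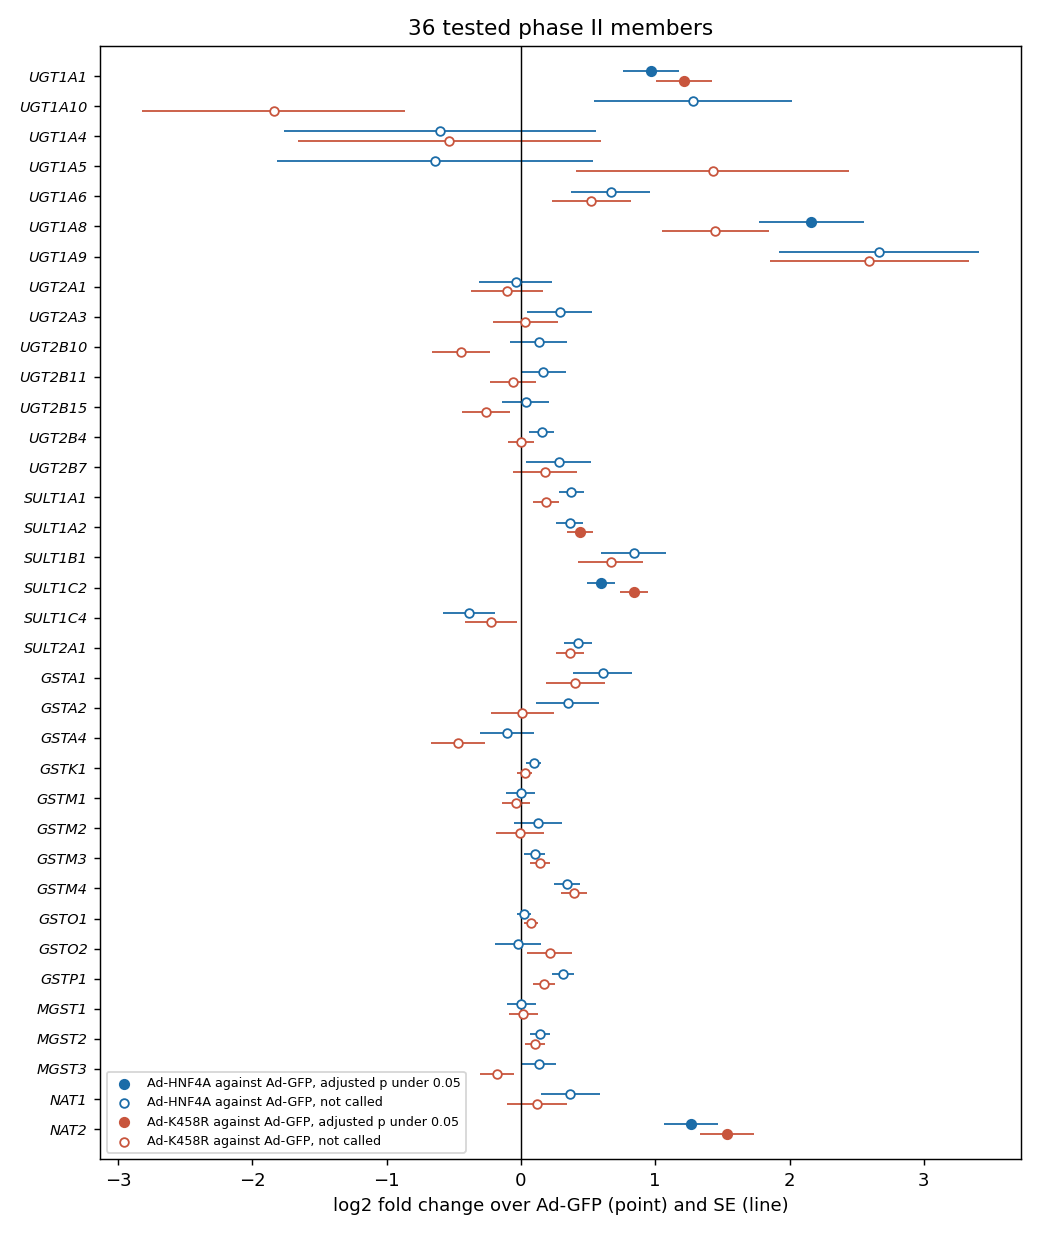
Log2 fold change over Ad-GFP (point) with its SE (line) for the 36 tested members, Ad-HNF4A in blue and Ad-K458R in red, filled where the adjusted p was under 0.05. The UGT1A rows have the largest values and the widest errors, while most GST and MGST points lie close to 0.

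UGT1A1 (chr2:233760248-233773299) conjugates bilirubin and is the main UGT1A enzyme of liver. It stood at 7.78, 5.38 and 7.54 CPM in Ad-GFP replicates 1 to 3, at 10.8, 12.4 and 17.3 CPM with Ad-HNF4A, and at 18.2, 16.8 and 13.1 CPM with Ad-K458R. Every library of either vector was above every control library, and Ad-HNF4A replicate 3 was the highest of its group. The log2 fold change was 0.97 ± 0.21 with Ad-HNF4A (SE, adjusted p = 0.03, edgeR) and 1.21 ± 0.21 with Ad-K458R (adjusted p = 0.0072). The call with Ad-HNF4A was lost without Ad-HNF4A replicate 3 (0.75, adjusted p = 0.096) and without any 1 of the Ad-GFP libraries (adjusted p = 0.068, 0.11 and 0.074 without replicates 1, 2 and 3). That with Ad-K458R held in all alternatives run.

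UGT1A8 (chr2:233617645-233773310), known mainly as an enzyme of the gut, had few counts. There were 24, 22 and 7 in Ad-GFP, 54, 67 and 86 in Ad-HNF4A, and 33, 41 and 62 in Ad-K458R. Scaled, these were 1.06, 1.20 and 0.338 CPM, then 3.38, 3.89 and 4.34 CPM, then 1.81, 1.85 and 3.46 CPM. The control libraries did not overlap with either vector. The log2 fold change was 2.16 ± 0.39 with Ad-HNF4A (SE, adjusted p = 0.012, edgeR) and 1.45 ± 0.40 with Ad-K458R (adjusted p = 0.091, not called). The difference between the vectors was -0.71 ± 0.35 and did not pass either (adjusted p = 0.61). Markers of intestinal epithelium gave no call in either comparison, 5 of 8 being tested.

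UGT1A9 (chr2:233671853-233773300), a liver and kidney enzyme that acts on phenols, had the largest fitted change over Ad-GFP among the tested members with either vector, and no call in the reported fit. On log2(FPKM + 1) with limma-trend it was called higher with Ad-K458R. Its counts were 1, 23 and 29 in Ad-GFP, 79, 49 and 176 in Ad-HNF4A, and 81, 150 and 84 in Ad-K458R. The log2 fold changes were 2.67 ± 0.74 and 2.59 ± 0.74 (SE, adjusted p = 0.12 and 0.15, edgeR), with the control libraries themselves spread from 0.044 to 1.40 CPM. UGT1A10, an enzyme of the gut with an exon 1 close to those of UGT1A8 and UGT1A9, was uneven within Ad-GFP. It stood at 0.088, 1.79 and 0.290 CPM in Ad-GFP, 1.82, 1.97 and 1.31 CPM in Ad-HNF4A, and 0.110, 0.181 and 0.279 CPM in Ad-K458R. All Ad-K458R libraries were below all Ad-HNF4A libraries, by -3.12 ± 0.90 on the log2 scale, and the difference did not pass (adjusted p = 0.42). Against Ad-GFP it was not called with either vector, but without Ad-GFP replicate 2 it was higher with Ad-HNF4A by 3.14 on the log2 scale (adjusted p = 0.014, edgeR). UGT1A5 moved the opposite way, with counts of 53, 1 and 15, then 0, 20 and 17, then 95, 40 and 31. No comparison of UGT1A5 was called. UGT1A6, which acts on small planar phenols, changed by 0.67 ± 0.29 and 0.52 ± 0.29 without a call (adjusted p = 0.28 and 0.48), and UGT1A4 had 0 to 18 counts per library.

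Because reads of the common part of exons 2 to 5 fit every UGT1A row, the 9 rows were also summed. The sum does not depend on how shared reads were divided among the rows, although reads left out as ambiguous would be missing from it. It held 356, 241 and 262 counts in Ad-GFP, 386, 470 and 764 in Ad-HNF4A, and 629, 728 and 467 in Ad-K458R. This corresponds to 13.8 ± 1.66 CPM, 30.0 ± 7.57 CPM and 31.2 ± 4.51 CPM (SD, n = 3). The locus was higher with Ad-HNF4A by 1.12 ± 0.18 on the log2 scale (SE, adjusted p = 0.0078, edgeR) and with Ad-K458R by 1.17 ± 0.18 (adjusted p = 0.0048). Between the vectors the sum differed by 0.05 ± 0.18 (adjusted p = 0.96). No control library overlapped with a vector library. UGT1A1, whose transcript has the most bases after exon 1, was the largest row in all 9 libraries.

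**Figure D3:**
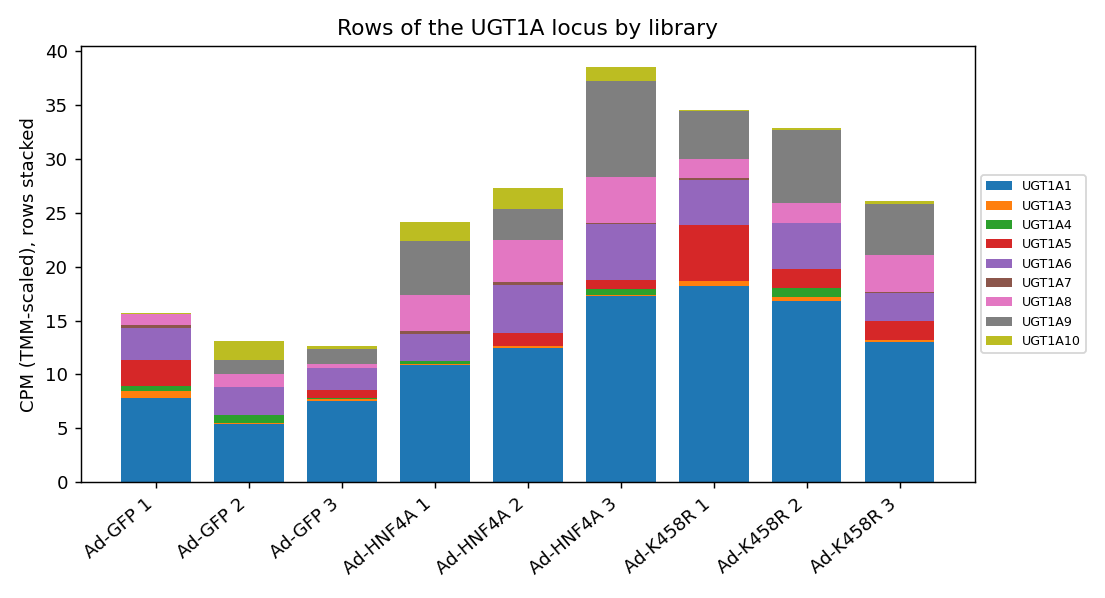
Stacked CPM of the 9 rows of the UGT1A locus in each library, 1 bar per library. The total is 12.7 to 15.7 CPM in the Ad-GFP bars and 24.2 to 38.6 CPM in the other 6, while the thin slices of UGT1A5 and UGT1A10 come and go between libraries of 1 group.

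UGT2 genes, clustered on chromosome 4, act on steroids, bile acids and drugs. None of the 7 tested UGT2A and UGT2B rows was called. UGT2B4, the highest of them, stood at 48.0 ± 3.96 CPM with Ad-GFP, 53.4 ± 4.31 in the Ad-HNF4A group and 48.0 ± 4.35 in the Ad-K458R group (SD, n = 3). UGT2B7, which glucuronidates morphine, changed by 0.28 ± 0.24 and 0.18 ± 0.24 on the log2 scale (SE). UGT2B10 stood at 3.54, 2.67 and 2.13 CPM with Ad-GFP, 2.94, 3.02 and 3.18 CPM with Ad-HNF4A, and 2.31, 2.03 and 1.78 CPM with Ad-K458R. Its Ad-K458R libraries were all below those of Ad-HNF4A, and the difference of -0.58 ± 0.22 was not called (adjusted p = 0.53, edgeR). Over all tested rows, log2 differences ran from -0.04 to 0.29 in UGT2A and from 0.04 to 0.28 in UGT2B with Ad-HNF4A. With Ad-K458R they ran from -0.10 to 0.03 and from -0.45 to 0.18. Summed over 7 rows, UGT2B changed by 0.16 ± 0.10 with Ad-HNF4A and by -0.02 ± 0.10 with Ad-K458R (adjusted p = 0.46 and 0.95).

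SULT1C2 (chr2:108288639-108309915), a sulfotransferase of phenols and hydroxyarylamines, was the clearest of the SULT genes. It stood at 17.1, 19.0 and 16.7 CPM in Ad-GFP, 25.3, 25.0 and 29.5 CPM in Ad-HNF4A, and 34.5, 28.4 and 31.8 CPM in Ad-K458R. No control library overlapped with the others, and 5 of the 6 vector libraries lay within 25.0 to 31.8 CPM. The log2 fold change was 0.60 ± 0.11 with Ad-HNF4A (SE, adjusted p = 0.011, edgeR) and 0.84 ± 0.11 with Ad-K458R (adjusted p = 0.00087). Without Ad-GFP replicate 3 the first of these missed the threshold (0.56, adjusted p rounding to 0.05). Its neighbour SULT1C4 was not called, at -0.39 ± 0.19 and -0.22 ± 0.19.

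SULT1A2 (chr16:28591943-28597109), which sulfates simple phenols, stood at 19.5, 18.9 and 21.0 CPM in Ad-GFP, 26.6, 24.0 and 25.7 CPM in Ad-HNF4A, and 29.8, 24.2 and 26.4 CPM in Ad-K458R. All vector libraries were above all control libraries. The log2 fold change was 0.36 ± 0.10 with Ad-HNF4A (SE, adjusted p = 0.078, edgeR) and 0.44 ± 0.10 with Ad-K458R (adjusted p = 0.033), so the gene was called in the second only, and their difference of 0.08 ± 0.10 was not (adjusted p = 0.87). The call was lost without any 1 of Ad-GFP replicates 1, 2 and 3 and Ad-K458R replicates 1 and 3, with adjusted p-values up to 0.15 over the alternatives. SULT1A1, its close relative, changed by 0.37 ± 0.09 and 0.19 ± 0.09 (adjusted p = 0.057 and 0.42). The summed SULT1A rows rose from 48.8 ± 0.76 to 63.1 ± 5.18 CPM with Ad-HNF4A (SD, n = 3, adjusted p = 0.021) and stood at 59.9 ± 2.84 CPM with Ad-K458R (adjusted p = 0.062).

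SULT2A1 (chr19:47870466-47886397) had the highest FPKM of the SULT genes. It stood at 42.1, 44.8 and 42.0 CPM in Ad-GFP, 49.0, 57.0 and 67.2 CPM in Ad-HNF4A, and 58.0, 53.3 and 54.9 CPM in Ad-K458R. The groups did not overlap with the control, and the adjusted p with Ad-HNF4A rounded to 0.05 but lay above it (log2 fold change 0.43 ± 0.10, edgeR). With Ad-K458R the log2 fold change was 0.37 ± 0.10 (adjusted p = 0.099). SULT1B1, a sulfotransferase of thyroid hormone, changed by 0.84 ± 0.24 and 0.67 ± 0.24 without a call (adjusted p = 0.1 and 0.23).

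NAT2 (chr8:18391245-18401218), which acetylates isoniazid and other arylamine and hydrazine drugs, was higher with both vectors in every alternative run. It stood at 1.19, 0.925 and 1.21 CPM in Ad-GFP, 2.38, 2.90 and 2.78 CPM in Ad-HNF4A, and 3.24, 3.02 and 3.46 CPM in Ad-K458R. The 3 groups did not overlap at all, and the counts behind these values were 17 to 27 in the control libraries and 38 to 67 in the others. The log2 fold change was 1.27 ± 0.20 with Ad-HNF4A (SE, adjusted p = 0.0051, edgeR) and 1.53 ± 0.20 with Ad-K458R (adjusted p = 0.001). Ad-K458R exceeded Ad-HNF4A by 0.27 ± 0.18, which did not pass (adjusted p = 0.73). NAT1, the more widely expressed relative, stood at 5.87 ± 1.19, 7.57 ± 2.29 and 6.39 ± 0.532 CPM (SD, n = 3), with overlapping groups and no call.

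**Figure D4:**
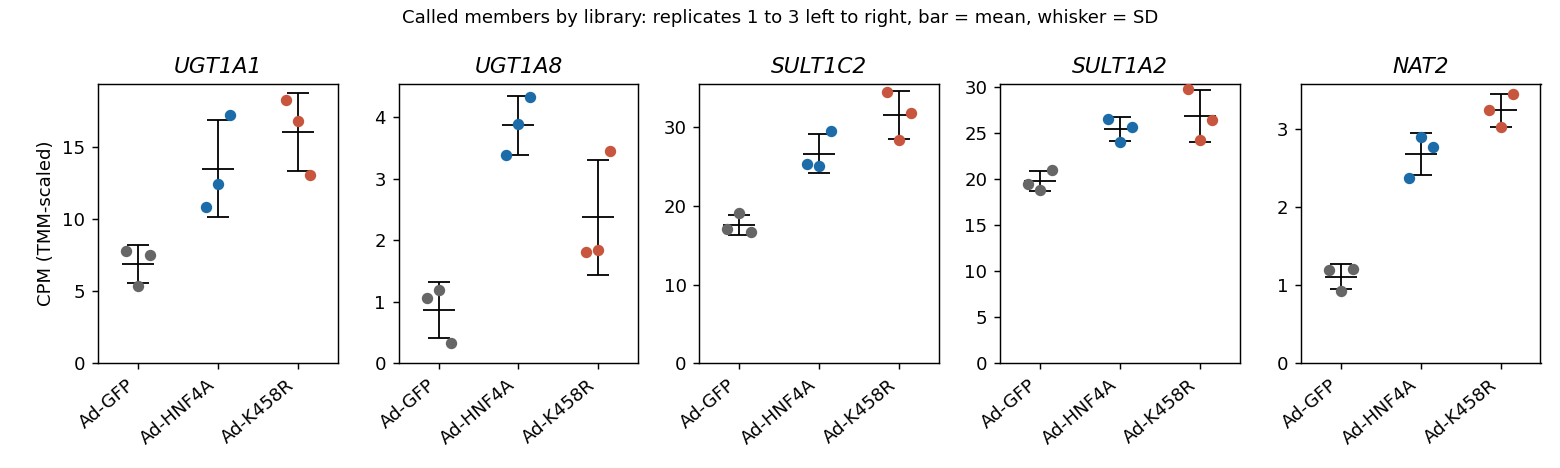
CPM of the 5 members called in at least 1 comparison, 1 point per library, with the mean (bar) and SD (whisker) of each group and axes that start at 0. The Ad-GFP libraries lie below all others in each panel, while Ad-HNF4A and Ad-K458R overlap in every panel but that of NAT2.

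None of the 11 tested GST and 3 tested MGST rows was called in any comparison of the reported edgeR fit. Other settings called 2 of them: GSTP1 was higher with Ad-HNF4A on library totals, with no filter beyond 1 count and without Ad-HNF4A replicate 2, and GSTM4 was higher with Ad-K458R in DESeq2 and on library totals. GSTP1 (chr11:67583595-67586660) stood at 1370, 1272 and 1251 CPM in Ad-GFP, 1617, 1451 and 1765 CPM in Ad-HNF4A, and 1602, 1423 and 1357 CPM in Ad-K458R. Ad-HNF4A lay wholly above the control and Ad-K458R overlapped with it. The log2 fold change was 0.31 ± 0.08 (SE, adjusted p = 0.07, edgeR) and 0.17 ± 0.08 (adjusted p = 0.39). As the most abundant member, GSTP1 alone made up 0.128% of all counts with Ad-GFP, 0.161% with Ad-HNF4A and 0.147% with Ad-K458R.

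GSTO1 (chr10:104235356-104267459) was the least variable of the abundant members, at 154, 158 and 147 CPM in Ad-GFP, 154, 156 and 155 CPM in Ad-HNF4A, and 159, 159 and 166 CPM in Ad-K458R. Its log2 fold changes were 0.02 ± 0.05 and 0.07 ± 0.05 (SE). GSTA2 (chr6:52750089-52763569) stood at 27.5, 32.4 and 33.9 CPM in Ad-GFP, 30.4, 32.6 and 56.2 CPM in Ad-HNF4A, and 32.7, 35.2 and 26.4 CPM in Ad-K458R. A single library, Ad-HNF4A replicate 3, was high, and the log2 fold changes were 0.35 ± 0.23 and 0.01 ± 0.23. GSTA4, which detoxifies the lipid peroxidation product 4-hydroxynonenal, was lower in all Ad-K458R libraries than in the controls, by -0.47 ± 0.20, without a call (adjusted p = 0.34, edgeR). GSTM4, a mu-class enzyme, was above the control in all libraries of both vectors, by 0.34 ± 0.10 and 0.39 ± 0.10, also without a call (adjusted p = 0.099 and 0.056). GSTA1, another hepatocyte alpha-class enzyme, changed by 0.61 ± 0.22 and 0.40 ± 0.22 (adjusted p = 0.2 and 0.47). Over the 4 tested GSTM rows the log2 differences ran from -0.00 to 0.34 with Ad-HNF4A and from -0.04 to 0.39 with Ad-K458R.

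The microsomal MGST enzymes are membrane proteins, and MGST2 and MGST3 also act on leukotriene A4. MGST1 stood at 183 ± 33.5, 184 ± 5.36 and 186 ± 6.57 CPM (SD, n = 3) in Ad-GFP, Ad-HNF4A and Ad-K458R. MGST3 (chr1:165630861-165661796) stood at 41.6, 39.2 and 39.4 CPM in Ad-GFP, 38.8, 38.0 and 55.2 CPM in Ad-HNF4A, and 35.0, 35.7 and 35.7 CPM in Ad-K458R. The Ad-K458R libraries were the lowest, and Ad-HNF4A replicate 3 again stood above its group. The difference between the vectors was -0.31 ± 0.13 on the log2 scale and was not called (adjusted p = 0.53, edgeR).

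Between Ad-K458R and Ad-HNF4A no member was called, and of all genes 1 was called higher and 1 lower (0.00599% each, edgeR). DESeq2 called none of the members either, nor did any other alternative. At an unadjusted p under 0.05 there were 4 of 36 members (11.1%), beside 8.74% of all genes. They were UGT1A10, UGT2B10 and MGST3, lower with Ad-K458R, and SULT1C2, higher with it by 0.24 ± 0.10 (SE, adjusted p = 0.55). The median log2 difference over the 36 was -0.086, against -0.003 over all genes, and 12 of 36 (33.3%) were above 0, beside 49.2% of all genes. Over the 31, 3 (9.68%) had an unadjusted p under 0.05, the median was -0.1 and 10 (32.3%) were above 0.

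Counted without a model, 12 of 36 members (33.3%) had all Ad-HNF4A libraries above all Ad-GFP libraries, where 12.2% of all genes did, and none had all below, where 9.16% did. With Ad-K458R, 13 (36.1%) lay wholly above and 4 (11.1%) wholly below, beside 13.2% and 10.6% of all genes. Over the 31 members that reached the limit in Ad-GFP alone, 10 (32.3%) lay wholly above with Ad-HNF4A and none below, and 11 (35.5%) above and 4 (12.9%) below with Ad-K458R. The 4 below were UGT2B15, SULT1C4, GSTA4 and MGST3. Between the vectors, 4 lay wholly above and 4 wholly below (11.1% each), beside 7.5% and 6.85% of all genes, and over the 31 there were 3 each (9.68%).

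Ad-HNF4A replicate 3 was often the top library. It was the highest of the 9 libraries for 17 of the 36 members (47.2%) and for 13.7% of all tested genes. It also held the most HNF4A mRNA of its group, at 5391 CPM against 3700 and 3507 CPM. Ad-K458R replicates 1 to 3 held 5412, 4999 and 5489 CPM and were highest for 5, 1 and 4 members. A link between HNF4A mRNA and these ranks was not tested. Without Ad-HNF4A replicate 3, 3 members were called higher (NAT2, SULT1C2 and UGT1A8). Ad-HNF4A replicate 1 stood apart from the other 8 on the second principal component of all genes (46.1 against -11.2 to 4.1), and without it 5 members were called higher, SULT2A1 being the addition. Without Ad-GFP replicate 3, only NAT2 and UGT1A8 remained among the 4.

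**Figure D5:**
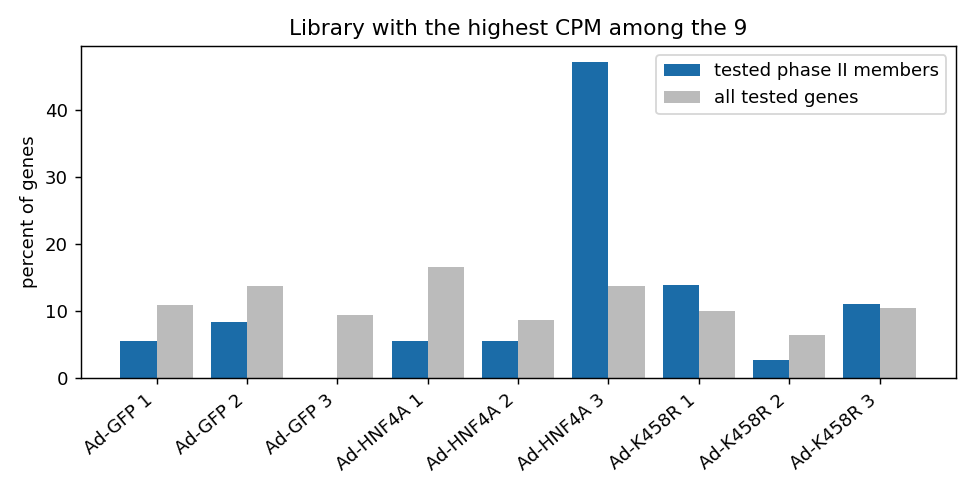
Percent of the 36 tested members (blue) and of all 16697 tested genes (grey) for which each library had the highest CPM of the 9. Ad-HNF4A replicate 3 is highest for 47.2% of the members and 13.7% of all genes, and no other library exceeds 13.9% of the members.

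Start-site sequence was examined for the 45 members with an entry in the RefSeq promoter table (GRCh38.p14), which covers 250 bases before to 50 bases after a start. UGT1A8 and UGT1A9, the tested rows with the largest fitted changes with Ad-HNF4A over Ad-GFP, are shown with 250 and 205 bases that end at or before the start of their gene. The choice used these results, neither row reached the limit in Ad-GFP alone, and UGT1A9 was not called in the reported fit. Promoters of the other called members are not shown, and a link between sequence and change was not tested. Capitals mark a run of 21 bases that UGT1A8 and UGT1A9 share near the start, and in UGT1A9 also a match to CAAAGNCCA, a form of the HNF4-type site.
UGT1A8, chr2:233617383-233617632, plus strand: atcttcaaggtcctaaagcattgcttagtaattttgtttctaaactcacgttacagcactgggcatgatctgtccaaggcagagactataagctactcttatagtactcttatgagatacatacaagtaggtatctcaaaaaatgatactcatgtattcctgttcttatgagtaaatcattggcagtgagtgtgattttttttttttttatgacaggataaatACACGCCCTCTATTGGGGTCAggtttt
UGT1A9, chr2:233671648-233671852, plus strand: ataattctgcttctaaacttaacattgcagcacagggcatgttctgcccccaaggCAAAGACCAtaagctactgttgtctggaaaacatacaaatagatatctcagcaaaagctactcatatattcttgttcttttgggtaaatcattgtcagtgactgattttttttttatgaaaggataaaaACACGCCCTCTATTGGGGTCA
Searched on both strands of the full windows, CAAAGNCCA occurred in 1 member promoter (2.22%, UGT1A9) and in 1.59% of all 35116 promoters. The stricter CAAAGTCCA was in none of the 45 and in 0.384% of all. A direct repeat of AGGTCA with 1 base between, searched in the same way, was in none of the 45 and in 0.0228% of all. GCGTG, the core of the AHR site, was in 13 members (28.9%) and 36.5% of all promoters, and TGACNNNGC, the NRF2-type element, in 11 (24.4%) and 13.3%. A match describes letters in the window and no binding, and a missing match says nothing about the factor.

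The genes around the conjugation step were taken from lists. Calls in these lists can be read beside all tested genes, of which 3.16% were called higher with Ad-HNF4A and 3.32% with Ad-K458R. Called lower were 0.305% and 0.234%. The lists were chosen with earlier results of these data known, so these shares describe the lists and test nothing about them. GLYAT and NR1I3, with no counts in Ad-GFP, were tested only through the groups where they were high. Of 14 genes that supply cofactors, such as UGDH for UDP-glucuronic acid, PAPSS2 for PAPS and GCLC for glutathione, all were tested and none was called with either vector. Their median log2 difference was -0.03 with Ad-HNF4A and 0.003 with Ad-K458R.

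Of 24 other conjugating enzymes 17 were tested, and 4 were higher with both vectors (GLYAT, BAAT, ACSM2A and ACSM2B). GLYAT, the glycine N-acyltransferase, had no counts in Ad-GFP, 0.873 ± 0.185 CPM in Ad-HNF4A tumours and 1.02 ± 0.12 CPM in Ad-K458R tumours (SD, n = 3). This is at least 18-fold and 21-fold higher, taking 3 counts over the control group as the floor. BAAT, which joins bile acids to glycine and taurine, rose from 8.95 ± 1.46 to 20.1 ± 3.63 and 36.8 ± 3.35 CPM (adjusted p = 0.0016 and 3.2e-05, edgeR). ACSM2A and ACSM2B, a closely similar pair of medium-chain acyl-CoA synthetases whose counts may be shared, rose by 1.47 ± 0.22 and 1.43 ± 0.14 on the log2 scale with Ad-HNF4A and by 1.52 ± 0.22 and 1.34 ± 0.14 with Ad-K458R (SE).

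Downstream of conjugation, 12 of 13 genes of deconjugation and mercapturate formation were tested. ACY3, which deacetylates mercapturates, rose with both vectors, by 0.78 ± 0.14 and 0.71 ± 0.14 (SE, adjusted p = 0.015 and 0.023, edgeR). ACY1, its relative for aliphatic acylated amino acids, rose with Ad-HNF4A by 0.71 ± 0.14 (adjusted p = 0.017) and stood at 0.43 ± 0.14 with Ad-K458R (adjusted p = 0.15). Of 11 transporters, ABCB1 rose with both vectors, by 0.33 ± 0.06 and 0.36 ± 0.06 (adjusted p = 0.016 and 0.0072). SLCO2B1 was also higher with Ad-HNF4A, from 91.8 ± 7.9 to 117 ± 9.31 CPM (SD, n = 3, adjusted p = 0.046). ABCC2, the main exporter of conjugates into bile, and ABCG2 were also higher with Ad-K458R, by 0.22 ± 0.05 and 0.35 ± 0.08 (adjusted p = 0.047 and 0.04). SLCO2B1 was called in 7 of 18 settings, ABCC2 in 10, ABCG2 in 11 and ACY1 in 13, each in the comparison named. With Ad-HNF4A and Ad-K458R in turn, ACY3 was called in 15 and 13 of 18 settings and ABCB1 in 14 and 18.

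Of the regulators of these genes, NR1I3 and NR0B2 were among those higher with both vectors. NR1I3, the receptor CAR that is known to act on the UGT1A1 enhancer, had no counts in Ad-GFP and reached 4.33 ± 0.91 and 7.28 ± 0.742 CPM (SD, n = 3). NR0B2, the corepressor SHP, rose from 3.05 ± 1.23 to 7.98 ± 1.98 and 8.06 ± 0.53 CPM (adjusted p = 0.028 and 0.024, edgeR). Its call held in 14 of 18 settings in each comparison. AHR, the receptor for aromatic pollutants, fell with Ad-HNF4A by 0.33 ± 0.07 on the log2 scale (SE, adjusted p = 0.027) and stood at -0.10 ± 0.07 with Ad-K458R (adjusted p = 0.62), and its call held in 11 of 18 settings. NFE2L2, which encodes NRF2, was not called, with an SD of 135 CPM around 246 CPM with Ad-K458R.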

How the data were processed

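Per the file headers, the authors deposited counts of reads and FPKM in 1 table, which lists 50868 human Ensembl genes. The submitters' processing notes name Trimmomatic and the mouse build mm10, and no source used here gives the aligner, the counter or the treatment of mouse reads. Of the 58 members, 51 have the same position in GENCODE 29 (GRCh38). The deposited FPKM equalled the count over the library total and 1 length per gene for 100% of values compared (relative tolerance 0.001). No step that keeps the strand is described, so antisense reads cannot be told apart.

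Counts were tested with edgeR 4.0.16 in R 4.3.3 (quasi-likelihood F test, robust fit, TMM scaling, default filter on low counts), with 9 libraries in 1 fit. The tests were two-sided, and p-values were adjusted over 16697 genes with a threshold of 0.05. Sample titles gave the groups, with 1 description used where a title was misspelt. SEs derive from the F statistic. Library totals were 15933702 to 23171796 counts, and floors cover counting error only.

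Values per library are given for called members, the 3 of highest FPKM in Ad-GFP and the 5 of smallest p between the vectors. From each list, called genes are named. A few list genes are not reported here. UGT1A5, UGT1A9, SULT1A1, SULT1B1, SULT1C4, SULT2A1, GSTA4, GSTM4, UGT2A2, UGT2B17, NAT1, MGST1, UGT2B4, UGT2B7 and NFE2L2 were named after their values were seen. The members and lists were chosen with earlier results of these data known. Alternatives were DESeq2 1.42.0, limma 3.58.1 (voom, and trend on log2(FPKM + 1) or + 0.1), 2 other scalings, 2 other filters, 6 libraries, a replicate block, summed subfamilies, and each library left out.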

Additional observations from a re-analysis of the deposited data

How the results depend on the processing

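No alternative called a member lower or called any member between the vectors. With Ad-HNF4A against Ad-GFP, 4 members were called higher in the reported fit, 6 with DESeq2, 7 with library totals in place of TMM, 7 with no filter beyond 1 count, and 2 to 6 when 1 library was left out. Of all genes, 527 were called higher in the reported fit, 672 with DESeq2, 593 on library totals and 632 with no filter. With Ad-K458R the member counts were 4, 6, 5, 5 and 3 to 4, and 2 with subfamilies summed (NAT2 and the UGT1A sum). Genes called higher over the whole table with Ad-K458R numbered 555 in the reported fit, 702 with DESeq2, 622 on library totals and 662 with no filter. NAT2 was called in 18 of 18 settings in both comparisons. SULT1C2 was called in 16 of 17 and 17 of 17, UGT1A1 in 10 of 17 and 17 of 17, UGT1A8 in 17 of 17 and 2 of 17, and SULT1A2 in 0 of 17 and 12 of 17. Genes called over the whole table with Ad-HNF4A numbered 578 in the reported fit and 351 in a fit of 6 libraries, and 344 to 756 with 1 library left out. With Ad-K458R they numbered 594, and 391 to 456 with 1 library left out. Between the vectors they numbered 2, and 62 with DESeq2, 4 on log2(FPKM + 1), 9 with no filter, 9 in 6 libraries and 3 to 12 with 1 left out. No pairing of libraries by replicate number was seen (r of same-numbered deviations -0.038 to 0.053). This measure cannot exclude a shared mouse or batch. Over the 31 members that reached the limit in Ad-GFP alone, an alternative added after seeing the data, 3 and 4 were called higher. With the replicate block, 3 members were called with Ad-HNF4A, UGT1A1 being lost, and 4 with Ad-K458R.

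Log2 differences that changed sign belonged to genes with no call in that comparison, and the cause was not tested. With Ad-HNF4A and 1 library left out, GSTO1 ran from -0.01 to 0.04, UGT2B10 from -0.03 to 0.35 and MGST3 from -0.06 to 0.23. With Ad-K458R, GSTA2 ran from -0.08 to 0.12 and UGT1A10 from -2.4 to 0.02. Between the vectors, SULT1A2 ran from -0.01 to 0.15. In these libraries 1 count was 0.0432 to 0.0628 CPM, and UGT1A8, UGT1A9 and UGT1A10 had at most 24, 29 and 33 counts in a control library, which limits their precision.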
